A study of Mus musculus with 4 samples.

Results

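The genes described here are the ligands and receptors of the tumour necrosis factor (TNF) superfamily, as measured in lesional facial skin of mice with a facial dermatitis. They were chosen by symbol: every gene whose symbol starts with Tnfsf or Tnfrsf and a digit, and Tnf, Lta, Ltb, Ltbr, Fas, Fasl, Cd40, Eda, Edar and Eda2r. The rule found 30 of 17849 genes, namely 8 ligands, 21 receptors and 1 RNA named as antisense to a ligand gene, Tnfsf13os. The rule itself reads symbols only.

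All 4 libraries came from 1 group of C57BL/6 mice at postnatal day 28, with the genotype written Nectin-cre(+);Ikk2FL/FL;Postn-/-. These mice carry the FADS model, a facial dermatitis in which Cre recombinase deletes the kinase gene Ikk2 (Ikbkb), and they are also null for Postn, the gene of the matrix protein periostin. Every library shares the Cre, the floxed Ikk2, the Postn deletion and the lesion, so there is no control among them. The label gives the Cre driver only as Nectin, and the cells in which it deleted Ikk2 are not named. The sample codes of libraries 1 to 4 end in 1L, 1R, 2L and 2R, so libraries 1 and 2 share a number and so do libraries 3 and 4. The labels do not explain the codes or say whether the skins came from separate animals. The spread between libraries may therefore be technical, libraries that share a number may not be independent, and a difference of libraries 3 and 4 from libraries 1 and 2 follows this split of the codes. Cap analysis of gene expression (CAGE) reads a short tag from the capped 5′ end of an RNA. A tag therefore marks a transcription start, each RNA gives at most 1 tag whatever its length, and levels of different genes can be set side by side in CPM, which scales the tags of each library to its total.

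Ligands of this superfamily are mostly made as trimers on the cell membrane or shed from it, and they cluster receptors on nearby cells. Some receptors carry an intracellular death domain that recruits Tradd, Fadd or Edaradd. Others bind TRAF adaptors directly, and many of both kinds feed into NF-κB through the IKK complex, of which Ikk2 is a kinase subunit. Decoy and soluble receptors bind ligand without signalling. In skin, TNF is known for inflammation, and ectodysplasin (Eda) and its receptor Edar for the formation of hair follicles and glands.

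The 4 libraries held between 17630119 and 18823630 tags, so that 3 tags, the number taken here as detection, stood for 0.159 to 0.170 CPM. Markers of keratinocytes, with a summed level of 7121 to 10959 CPM, were high in all 4, as the tissue label says. Library 2 and library 4 stood apart by secretory gland genes, whose 7 measured markers summed to 15.1, 40735, 11.9 and 8729 CPM in libraries 1 to 4. Gm1553, Mucl2, Obp1a and Smr3a were at 0 tags in library 3. The 10 hair matrix and shaft markers summed to 8838 and 8120 CPM in libraries 1 and 2 and to 3872 and 5276 CPM in libraries 3 and 4. Postn itself gave 0.525 ± 0.225 CPM (SD, n = 4), and Ikbkb 36.2 ± 2.06 CPM. Starts can be read from an allele that has lost later exons, so neither level checks the deletions.

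Levels within the family spanned from 90.5 CPM for the TNF receptor gene Tnfrsf1a to 0.224 CPM for the ligand gene Tnfsf11. The 3 highest members, Tnfrsf1a, Tnfrsf19 and Tnfrsf12a, held 57.6% of all tags of the family, and the 6 highest, all receptors, held 78.9%. Of the 30 members, 29 gave at least 3 tags in every library. The exception was the ligand gene Tnfsf11, with 5, 0, 6 and 5 tags. The median level of a member was 3.62 CPM, below the median of 17.12 CPM over all 17038 genes kept, and 12 members reached 5 CPM. The receptors summed to 364 ± 29.0 CPM and the ligands to 26.8 ± 4.48 CPM (SD, n = 4), so that ligands gave 6.85% of the tags of the 29 ligand and receptor genes. Most neighbours in the order of levels could not be separated by their ranges. Of 29 steps between neighbours in that order, 4 separated genes whose ranges over the libraries did not overlap. These were Tnfrsf19 above Tnfrsf12a, Tnfrsf12a above Ltbr, Ltbr above Tnfrsf21, and Tnfrsf18 above Tnfsf12. At the other 25 steps, that from Tnfrsf1a to Tnfrsf19 included, the ranges overlapped. Compared within each library, the higher gene stood above its neighbour in 4 of 4 libraries at 10 of the 29 steps. The step from Tnfrsf1a to Tnfrsf19 was among them. The order itself was set by the same values.

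**Figure D1:**
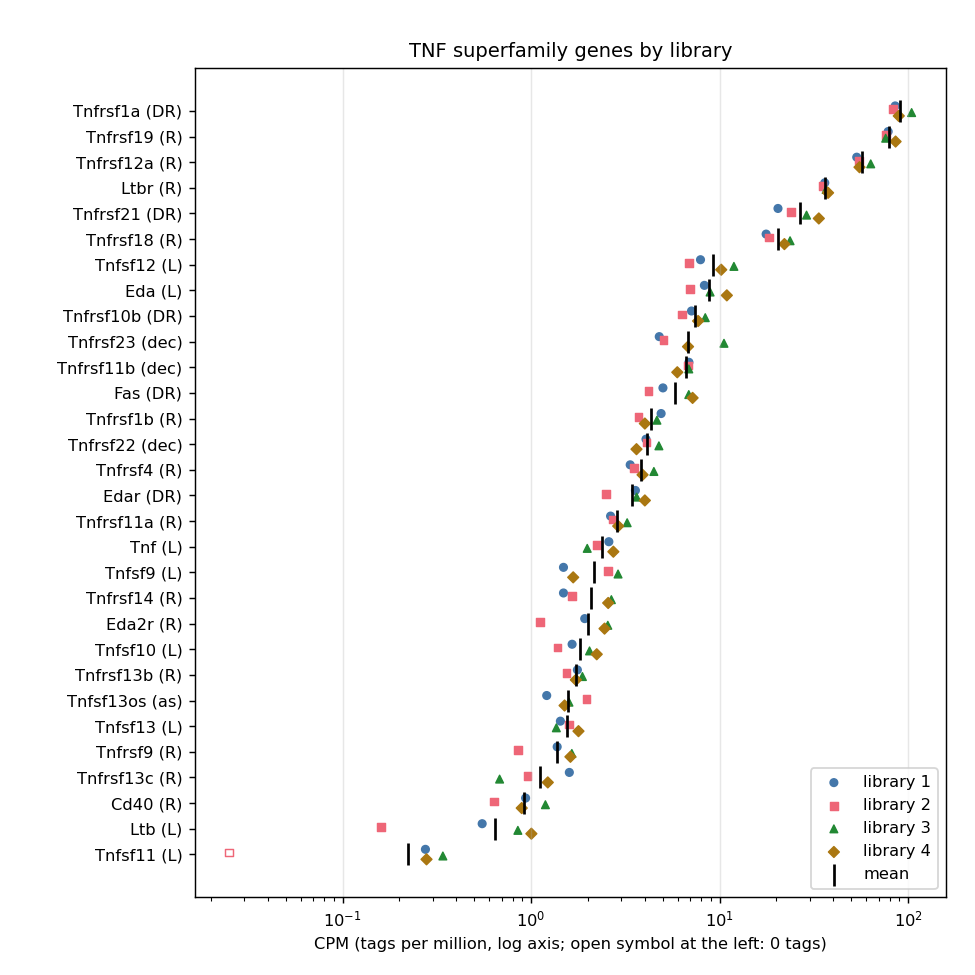
Level of each of the 30 genes in each library, in CPM on a log axis, ordered by mean (black bar); L marks ligands, DR death domain receptors, R other signalling receptors, dec decoy or soluble receptors and as the antisense RNA. The 6 highest genes are receptors with means of 20.4 to 90.5 CPM, and the open symbol stands for 0 tags of Tnfsf11 in library 2.

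Among the 8 ligand genes, Tnfsf12 and Eda stood highest. Tnfsf12, which encodes TWEAK, a cytokine of tissue injury and repair, gave 7.92, 6.91, 11.9 and 10.2 CPM in libraries 1 to 4. Libraries 3 and 4 were both above libraries 1 and 2. All 8 clusters of Tnfsf12 are listed in the deposited table under the read-through gene Tnfsfm13 as well, so the table does not show which of the pair the tags belong to. Eda, the ectodermal ligand whose loss leaves mice without several hair types and sweat glands, gave 8.31, 6.96, 8.91 and 10.9 CPM. Library 4 was the highest and library 2 the lowest, and the ranges of Eda and Tnfsf12 overlapped, with Tnfsf12 the higher in 1 of 4 libraries.

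Tnf, the prototype inflammatory cytokine of the family, was low, at 2.59, 2.23, 1.99 and 2.73 CPM (mean 2.38 ± 0.338, SD, n = 4). Its spread was 0.933 times the SD that counting alone would give, and the 4 libraries lay close together. Tnfsf9, which encodes the ligand of the T cell costimulator Tnfrsf9, gave 1.49, 2.55, 2.89 and 1.67 CPM. Here libraries 2 and 3 were above libraries 1 and 4. Tnfsf10, which encodes the death ligand TRAIL, gave 1.65, 1.38, 2.04 and 2.23 CPM. Tnfsf13, which encodes the B cell and plasma cell survival factor APRIL, gave 1.43, 1.59, 1.36 and 1.78 CPM, a spread of 0.645 times the counting SD. The RNA Tnfsf13os, whose cluster lay on the opposite strand 1023 bp away, stood at 1.57 ± 0.311 CPM (SD, n = 4). Clusters carry a strand, so the tags of these neighbours were counted apart.

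The 2 remaining ligand genes were near the limit of detection. Ltb, which encodes the membrane partner in lymphotoxin heterotrimers, gave 0.550, 0.159, 0.851 and 1.0 CPM, or 10, 3, 15 and 18 tags. Its only cluster is listed under the small RNA gene Mir6973a too. Tnfsf11, which encodes RANKL, the osteoclast differentiation factor that keratinocytes can also make, gave 0.275, 0, 0.340 and 0.279 CPM. A count of 0 in library 2 allows a level of up to 0.159 CPM. The ligand genes Lta, Fasl, Tnfsf4, Tnfsf8, Tnfsf13b, Tnfsf14, Tnfsf15 and Tnfsf18 are not analysed here.

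Start sequences are shown for the 3 highest ligand genes that match an entry of the RefSeq promoter table, because their tag clusters differ in shape. Each window is read 5′ to 3′ on the gene's own strand from GRCm38.p6 and holds 70 bases before and 30 bases from the most upstream start of the entry. Capitals mark bases inside a deposited tag cluster of that gene.
Eda, chrX:99975536-99975635, plus strand: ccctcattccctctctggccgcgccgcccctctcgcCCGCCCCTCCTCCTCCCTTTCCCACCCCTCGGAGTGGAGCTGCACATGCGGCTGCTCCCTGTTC
Tnf, chr17:35201978-35202077, minus strand: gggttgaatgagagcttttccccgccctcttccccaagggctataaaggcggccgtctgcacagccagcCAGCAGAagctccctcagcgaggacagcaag
Tnfsf10, chr3:27316958-27317057, plus strand: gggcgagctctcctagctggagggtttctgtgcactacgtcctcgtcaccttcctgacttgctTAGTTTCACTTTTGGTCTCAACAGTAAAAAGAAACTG
Eda had 1 broad cluster, of 128 bp, which ran through the annotated start. Tnf had 1 cluster spanning 6 bp, chr17:35202002-35202008 on the minus strand, and all of its tags lay there. The letters TATAAA stood 29 bases before its annotated start. Narrow clusters are easier to obtain from few tags, so the widths were set against genes of like tag number: of 686 such genes, 4.52% had a strongest cluster as narrow as that of Tnf, and their median width was 79 bp. For the low Ltb, with a cluster of 4 bp, the share as narrow was 13.2% of 447 genes, and for Tnfsf11, with 2 bp, it was 25.2% of 310 genes. Among the members Tnf thus had the narrowest start for its level, while the short clusters of Ltb and Tnfsf11 were common at their tag numbers. Tnfsf10 had 1 cluster of 98 bp.

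The death domain receptors were led by Tnfrsf1a, the receptor through which soluble TNF acts on most cell types. It gave 85.4, 82.9, 104 and 89.2 CPM, the highest mean of the family at 90.5 ± 9.65 CPM (SD, n = 4). Library 3 was the highest and the other three lay within a few CPM of each other. Tnfrsf21, an orphan-like death receptor known from neurons and T cells, gave 20.4, 24.0, 28.9 and 33.6 CPM. Libraries 3 and 4 were both above libraries 1 and 2, and its spread was 4.75 times the counting SD, the highest ratio among the members. Tnfrsf10b, the death receptor for TRAIL, gave 7.10, 6.32, 8.39 and 7.69 CPM.

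Fas, the receptor for Fas ligand and a classical inducer of apoptosis, gave 5.01, 4.2, 6.86 and 7.19 CPM. Again libraries 3 and 4 were above libraries 1 and 2. Edar, which signals through Edaradd to NF-κB in hair placodes, gave 3.58, 2.5, 3.63 and 4.01 CPM, with library 2 the lowest. Together the 5 measured death domain receptors summed to 134 ± 15.8 CPM (SD, n = 4). Tnfrsf25 is not analysed here.

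The signalling receptors without a death domain held the largest share of the tags, 213 ± 11.1 CPM (SD, n = 4) over 13 genes. Tnfrsf19, also called Troy, a receptor related to Edar and known from hair follicle stem cells, gave 78.4, 76.3, 76.1 and 85.8 CPM. Library 4 was the highest, and the other three lay close together. Tnfrsf12a, the TWEAK receptor, which injured epithelium and fibroblasts make, gave 53.4, 55.0, 63.4 and 55.2 CPM, highest in library 3. Ltbr, the lymphotoxin beta receptor of stromal and epithelial cells, gave 36.1, 35.2, 36.8 and 37.6 CPM. That spread was 0.715 times the counting SD, so no variation between libraries was detectable beyond counting. Tnfrsf18, a costimulator that is high on regulatory T cells, gave 17.7, 18.2, 23.7 and 22.1 CPM, with libraries 3 and 4 above libraries 1 and 2.

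The other 9 genes of this class lay below 5 CPM. Tnfrsf1b, the second TNF receptor, which is prominent on leukocytes, gave 4.90, 3.72, 4.65 and 4.01 CPM. Tnfrsf4, another T cell costimulator, stood at 3.81 ± 0.503 CPM, and Tnfrsf11a, the receptor for RANKL, gave 2.64, 2.71, 3.23 and 2.90 CPM. Tnfrsf14, a receptor for LIGHT, stood at 2.09 ± 0.611 CPM, and Eda2r, the X-linked receptor for a splice form of Eda, gave 1.93, 1.12, 2.55 and 2.45 CPM. Receptors that B cells use for survival signals were low: Tnfrsf13b gave 1.76, 1.54, 1.87 and 1.73 CPM, and Tnfrsf13c stood at 1.11 ± 0.390 CPM. All tags of Tnfrsf13b lay in 1 cluster at an annotated start inside the gene, 15697 bp downstream of the nearest RefSeq start. The T cell costimulator Tnfrsf9 gave 1.38, 0.850, 1.64 and 1.62 CPM, and Cd40, the costimulator of B cells and dendritic cells, was the lowest receptor at 0.914 ± 0.227 CPM (SD, n = 4 for each). Tnfrsf8 and Tnfrsf17 are not analysed here.

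Lymphocyte markers were low in these libraries too. Of 15 T cell markers 6 were measured, with a sum of 9.46, 7.76, 14.5 and 15.5 CPM in libraries 1 to 4, led by Cd3g at 4.44 ± 1.77 CPM. Of 8 B cell and plasma cell markers 3 were measured, with a sum of 3.0 ± 0.891 CPM (SD, n = 4). In such bulk samples, fewer cells of a type and less RNA per cell cannot be told apart. Tnfrsf18, at 20.4 ± 2.92 CPM, was above the sum of these 6 T cell markers in each library, and Tnfrsf4, whose cluster lies 12390 bp away on chromosome 4, was 5.31 times lower (log2 ratio 2.41 ± 0.06, SD, n = 4). Which cells held these RNAs was not tested.

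The 3 measured decoy and soluble receptors summed to 17.6 ± 3.09 CPM (SD, n = 4), and each lay above the median member, with levels of 4.14 to 6.80 CPM. Tnfrsf23, a mouse decoy receptor for TRAIL, gave 4.79, 5.05, 10.6 and 6.80 CPM. Library 3 stood highest, and the spread was 4.36 times the counting SD. Its paralogue Tnfrsf22, with a cluster 36087 bp away on chromosome 7, gave 4.07, 4.09, 4.76 and 3.62 CPM, with a spread 0.986 times the counting SD. The log2 ratio of Tnfrsf23 to Tnfrsf22 was 0.23, 0.30, 1.14 and 0.90 in libraries 1 to 4, positive in 4 of 4. Both genes are close copies of each other, and the placing of tags that match both is not described in the sources used here, so their levels are uncertain to that extent. Tnfrsf11b, which encodes osteoprotegerin, the soluble trap for RANKL, gave 6.88, 6.80, 6.86 and 5.96 CPM, with library 4 the lowest. Tnfrsf26 is not analysed here.

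Start sequences of the 3 highest receptors are shown with that of Edar, which was added after its values were seen because its ligand is among the highest. The windows and capitals are as for the ligands.
Tnfrsf1a, chr6:125349653-125349752, plus strand: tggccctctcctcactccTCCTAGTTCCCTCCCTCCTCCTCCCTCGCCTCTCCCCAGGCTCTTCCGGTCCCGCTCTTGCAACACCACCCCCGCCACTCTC
Tnfrsf19, chr14:61046826-61046925, minus strand: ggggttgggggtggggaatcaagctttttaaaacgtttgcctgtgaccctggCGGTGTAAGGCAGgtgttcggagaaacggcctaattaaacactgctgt
Tnfrsf12a, chr17:23677439-23677538, minus strand: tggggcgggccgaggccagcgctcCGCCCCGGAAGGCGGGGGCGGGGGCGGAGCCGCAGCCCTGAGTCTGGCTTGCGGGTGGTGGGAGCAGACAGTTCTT
Edar, chr10:58675667-58675766, minus strand: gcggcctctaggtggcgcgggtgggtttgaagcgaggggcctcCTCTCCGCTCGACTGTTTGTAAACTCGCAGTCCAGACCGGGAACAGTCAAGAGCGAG
Tnfrsf1a, Tnfrsf12a and Edar each had a broad cluster across the annotated start, of 215, 103 and 154 bp. The RefSeq start of Tnfrsf19 fell beside a minor cluster, which held 2.34 ± 0.668 CPM of its 79.2 CPM.

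Receptor and ligand were then compared within each library as a log2 ratio of their tags (0.5 tags added to each). Of 22 ligand and receptor pairs listed, both genes were measured for 11. The receptor was the higher in 4 of 4 libraries for 7 pairs, the ligand was the higher in 4 of 4 for 3 pairs, and for 1 pair the libraries were mixed. An exact two-sided sign-flip permutation test over 4 libraries cannot give less than p = 0.125, which all pairs but the mixed one reached, so no pair could pass 0.05.

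Receptor excess was large for TNF and lymphotoxin and smaller for TWEAK and TRAIL. Tnfrsf1a exceeded Tnf by 5.03, 5.20, 5.70 and 5.02 on the log2 scale, a mean of 37.7-fold. Tnfrsf1b exceeded Tnf by only 0.85 ± 0.28, or 1.81-fold, and Tnfrsf1a stood 20.9-fold above Tnfrsf1b (log2 4.38 ± 0.18). The 2 TNF receptors thus differed from each other far more than the libraries did. For Ltbr against Ltb the log2 ratio was 5.97, 7.57, 5.39 and 5.19, where library 2 rests on 3 Ltb tags. Tnfrsf12a exceeded Tnfsf12 by 2.64 ± 0.28, or 6.25-fold, and Tnfrsf10b exceeded Tnfsf10 by 2.01 ± 0.17, or 4.04-fold (SD, n = 4 for each).

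The ectodysplasin pair went the other way. The log2 ratio of Edar to Eda was -1.21, -1.47, -1.29 and -1.44, so that Edar stood at 0.392 times the level of Eda, with an SD of 0.12 that was the smallest of the 11 pairs. Eda2r stood at 0.224 times Eda (log2 -2.16 ± 0.34), and Edar was 1.75-fold above Eda2r. Tags at the start of Eda do not separate its splice forms, which bind different receptors. Tnfrsf9 lay below Tnfsf9 in 4 of 4 libraries, but by -0.11, -1.56, -0.80 and -0.05, so 2 of the libraries were close to equality.

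The pair of APRIL and its receptor did not separate. The log2 ratio of Tnfrsf13b to Tnfsf13 was 0.29, -0.05, 0.45 and -0.05, a mean of 0.16 ± 0.25 (SD, n = 4, exact permutation p = 0.5). In the RANKL axis, osteoprotegerin exceeded the signalling receptor Tnfrsf11a 2.30-fold (log2 1.2 ± 0.17), and both exceeded the ligand. The log2 ratio of Tnfrsf11a to Tnfsf11 was 3.14, 3.15 and 3.25 in libraries 1, 3 and 4. The value of 6.69 in library 2 rests on 0 ligand tags and is set by the 0.5 tags added.

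**Figure D2:**
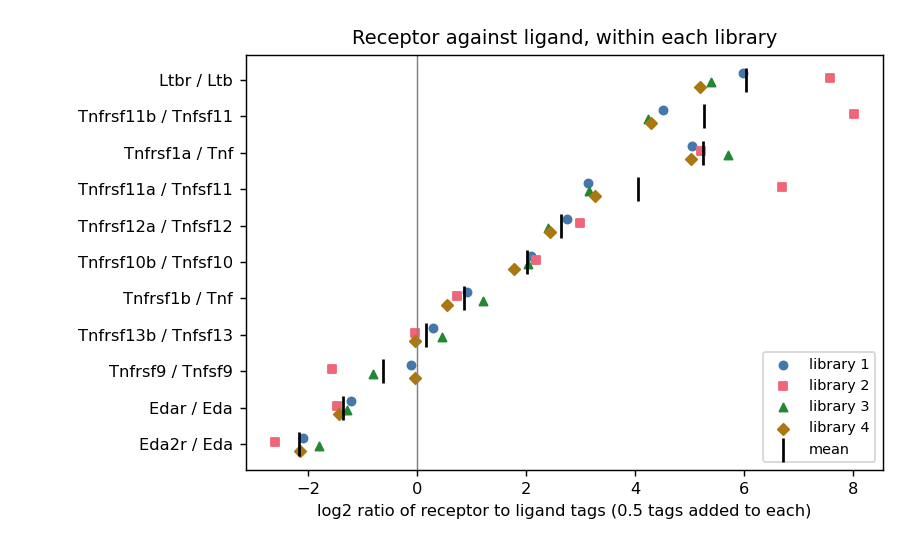
Log2 ratio of receptor to ligand tags within each library for the 11 measured pairs, with 0.5 tags added to each count; black bars are means. Points right of 0 have more receptor than ligand: 7 pairs lie right of 0 in every library, while Edar and Eda2r lie left of Eda with means of -1.35 and -2.16, and library 2 stands far right for both Tnfsf11 pairs, where the ligand has 0 tags.

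Variation between libraries was tested with limma on log2(CPM + 1), which sets the variance of a gene over the 4 libraries against that of other genes at its level. Of the 30 members, 27 reached a mean of 1 CPM and entered the test, while Cd40, Ltb and Tnfsf11 did not. None was called at a Benjamini-Hochberg adjusted p of 0.05, against 0.414% of all 14733 genes tested (61 genes). None had an unadjusted limma p under 0.05 either, beside 6.38% of all genes tested, and on the recovered tags edgeR (0.224% of all genes called) and DESeq2 (3.48%) called 0 members as well. The smallest p among members was 0.0758, for Tnfrsf21 (limma adjusted p = 0.847), followed by 0.0762 for Tnfrsf23 (limma adjusted p = 0.849). The median SD of a tested member was 0.148 on the log2(CPM + 1) scale, beside 0.125 over all genes tested. Low genes carry more counting error, and relative to the counting SD the members' median was 1.5 and that of all genes 1.99. Neither pair of medians was matched for level, which had a median of 4.14 CPM for the tested members and 23.0 CPM for all genes tested. At a share of 0.414%, a set of 27 genes would rarely hold a called gene, so the 0 calls say little about the members. Power with 4 libraries is also low. Tnfrsf21, with a spread of 4.75 times the counting SD, did not reach an unadjusted limma p of 0.05. The test compares it with genes of its level and not with counting error, so that ratio does not measure power. No member was detected to vary more than other genes of its level, and smaller differences could not be seen.

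Members were most often highest in library 3. Of the 27 tested, 3, 1, 14 and 9 had their highest CPM in libraries 1 to 4, while over all genes tested the shares were 22.8%, 6.48%, 35.3% and 35.4%. Library 2 was the lowest for 12 of the 27, beside 50.6% of all genes tested. These CPM carry no TMM scaling. With TMM scaling 14 members were again highest in library 3, against 26.1% of all genes, and 5 were highest in library 2, against 29.3%. The median deviation of the members from their own means was -0.06, -0.12, 0.13 and 0.09 on the log2(CPM + 1) scale in libraries 1 to 4, and that of all genes tested was -0.02, -0.09, 0.05 and 0.06. Of the 27 tested members, 4 were lowest in library 3, namely Tnfrsf19, Tnf, Tnfsf13 and Tnfrsf13c, the last of which gave 1.60, 0.956, 0.681 and 1.23 CPM.

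Several cell type lists also had higher sums in libraries 3 and 4. Keratinocyte markers (10 of 10 measured) summed to 8296, 7121, 10959 and 10417 CPM. Krt10 and Krt1, with means of 3476 and 2642 CPM, made up most of this sum. Krt14 and Krt5 gave 649 and 470 CPM in library 4, below the 712 and 503 CPM of library 1. The other keratinocyte markers were each higher in libraries 3 and 4 than in libraries 1 and 2. The sum of the T cell markers, given above, was higher in libraries 3 and 4 too, as were Cd3g, Cd3e and Cd2. Lck, Cd3d and Icos did not follow that split, and Icos gave 0.903 CPM in library 2 and 0.111 CPM in library 4. Fibroblast markers (8 of 8 measured) summed to 3640, 3232, 6136 and 5440 CPM, and endothelial markers (6 of 6) to 42.5, 43.1, 62.0 and 63.2 CPM. Dendritic cell and Langerhans cell markers (7 of 8) summed to 341, 333, 530 and 483 CPM. Of these, Itgax was lowest in library 4, at 1.23 CPM, while the others were higher in libraries 3 and 4. Macrophage markers (9 of 9) ranged less, with a sum of 201 ± 13.6 CPM, as did mast cell markers (7 of 7) at 71.9 ± 6.66 CPM (SD, n = 4). The mast cell sum joined genes that went different ways. Kit, the highest of them, gave 36.0, 33.2, 21.6 and 25.8 CPM, while 4 of the 6 tested were highest in library 3. Neutrophil markers (4 of 6) summed to 325, 421, 620 and 477 CPM. S100a8 and S100a9, with means of 273 and 184 CPM, made up nearly all of this sum. Cxcr2, at 2.29 ± 0.294 CPM (SD, n = 4), was highest in library 1 and lowest in library 4. Csf3r was highest in library 3 at 2.38 CPM, with 1.49 CPM in library 1 and 1.51 CPM in library 4. The sum therefore does not show whether neutrophils followed this split of the libraries. Skeletal muscle markers (6 of 6) summed to 2935, 2147, 3575 and 5379 CPM. The part of these cell types in the members' levels was not tested.

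**Figure D3:**
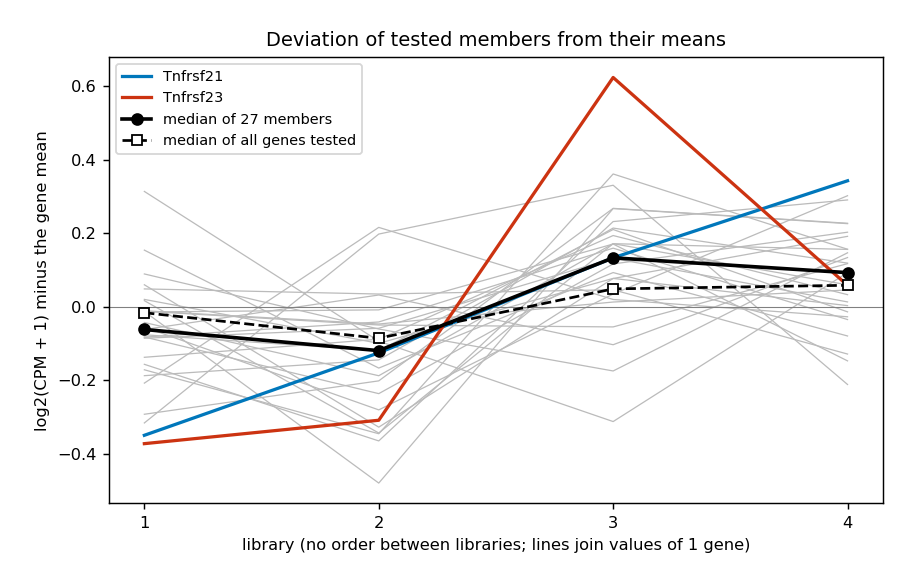
Deviation of each of the 27 tested genes from its own mean in each library, on the log2(CPM + 1) scale; grey lines are single genes, the solid black line their median and the dashed line the median of all genes tested. Tnfrsf23 peaks in library 3 and Tnfrsf21 is highest in library 4, and the members' median is -0.12 in library 2 and 0.13 in library 3.

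CAGE also shows where each gene starts. Most members used 1 start region: 22 of 30 had 1 cluster, and among the tested members it was 19 of 27, beside 43.8% of all genes tested. The strongest cluster spanned an annotated GENCODE start for 27 of 30 members, and the other three, Ltb, Tnfrsf14 and Tnfrsf9, lay within 7 bp of one. Among tested members this was 25 of 27, beside 85.0% of all genes tested. The strongest cluster of the tested members had a median width of 100 bp, against 124 bp over all genes tested, and the widest were those of Tnfrsf1a (215 bp), Ltbr (212 bp) and Tnfrsf11b (208 bp). Neither these widths nor the shares with 1 cluster were matched for level. The median level was 4.14 CPM for the tested members and 23.0 CPM for all genes tested, so low level may account for these differences.

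A second cluster with at least 10% of the gene's tags was found for 3 members, Tnfrsf19, Tnfrsf9 and Tnfsf12, against 20.4% of all genes tested, a share not matched for level. Tnfrsf19 had 13 clusters, and 3 of them passed that share. The strongest, chr14:61046448-61046569 on the minus strand, gave 30.9, 31.2, 32.4 and 33.8 CPM. Another, chr14:61037880-61038074, lay 8374 bp downstream and gave 29.3, 29.5, 25.2 and 28.6 CPM. These 2 clusters held 40.6% ± 1.53 and 35.6% ± 2.81 of the tags of the gene (SD, n = 4). The third, chr14:61046143-61046175, lay 273 bp downstream of the strongest and gave 13.4, 12.4, 13.8 and 18.2 CPM, highest in library 4. Taken as regions, the 12 clusters within 1000 bp of the strongest held 64.4% ± 2.81 of the tags, and the downstream cluster the rest. Summing the clusters gives the level of 79.2 CPM, and the strongest alone would give 32.1 CPM.

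**Figure D4:**
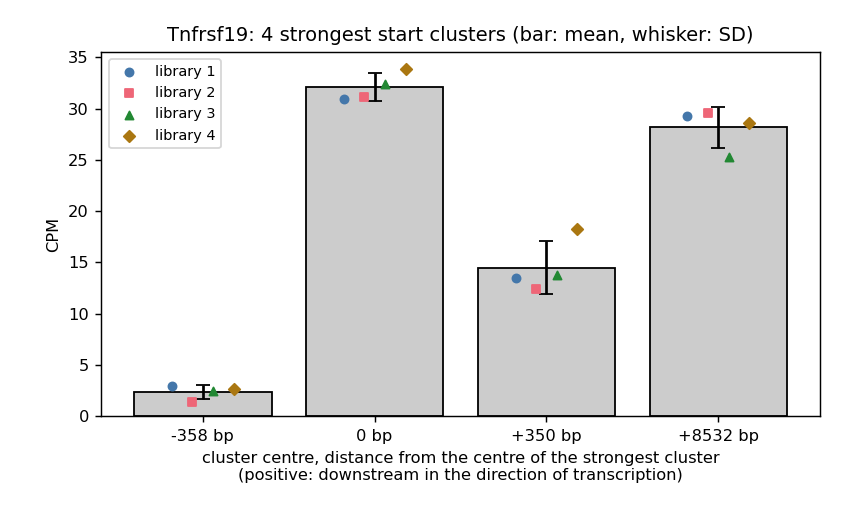
Level in CPM of the 4 strongest start clusters of Tnfrsf19, placed in the order of transcription and labelled by the distance of their centres from that of the strongest; bars are means, whiskers the SD and points the 4 libraries. The strongest cluster (32.1 CPM) and the downstream cluster (28.2 CPM) are nearly level, and the most upstream cluster holds 2.34 CPM.

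The other two genes split their tags less evenly. Tnfrsf9 had 81.7% ± 6.49 of its tags at chr4:150914563-150914610 on the plus strand and the rest 13414 bp downstream, on 2 to 8 tags a library. Tnfsf12 had 56.9%, 59.2%, 68.6% and 68.3% of its tags in libraries 1 to 4 at chr11:69695800-69695900 on the minus strand. The share was higher in libraries 3 and 4, the libraries in which the gene itself was higher, and a further 26.4% ± 3.29 lay 106 bp downstream (SD, n = 4). An unnamed cluster on the opposite strand within 500 bp upstream was found for 1 of the 27 tested members, Ltbr, beside 9.62% of all genes tested. It lay at chr6:125313985-125314051 on the plus strand with 2.36 ± 0.330 CPM (SD, n = 4).

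Promoter windows from RefSeq (250 bases before to 50 after the start, GRCm38.p6) were available for 23 of the 30 members, and the RefSeq start lay inside the strongest cluster for 16 of them. It lay 15697 bp from that cluster for Tnfrsf13b, 5545 bp for Tnfrsf9, 286 bp for Tnfrsf19 and 143 bp for Tnfrsf4. The windows of these genes hold no base of the strongest cluster, so motifs in them are not at the main start seen here. Motifs were searched on both strands, and a match is a description of letters only. TATAAA was found in 4 of 23 member windows, against 13.6% of all 32851 windows, namely those of Tnf, Eda2r, Tnfrsf23 and Tnfsf11. A κB-like pattern, GGGA and CC with 4 bases of any kind between them, was found in 7 of 23, against 20.7%, and these were the windows of Eda, Eda2r, Ltb, Tnf, Tnfrsf13b, Tnfrsf14 and Tnfsf11. The GC box GGGCGG was found in 13 of 23, against 35.7%, with 7 matches for Eda. No match of 1 motif overlapped a match of another motif in the 23 windows, and these counts were not tested.

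The genes that carry the signal inside the cell were high beside the ligands. All 38 listed adaptor and effector genes were measured and tested, and limma called 0 of them (0 also at an unadjusted p under 0.05, beside 6.38% of all genes tested). They summed to 1484 ± 93.3 CPM (SD, n = 4). The highest were Adam10, a protease that sheds membrane ligands and receptors, at 239 ± 14.2 CPM, the NF-κB subunit gene Nfkb1 at 114 ± 14.4 CPM, and Rbck1, a subunit of the linear ubiquitin ligase, at 78.9 ± 4.09 CPM. Edaradd, the adaptor of Edar, stood at 31.3 ± 2.24 CPM, above both its receptor and Eda. Of these 38 genes, 20 were highest in library 3.

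Of 20 target and feedback genes of the pathway, 19 were measured and 16 tested, and limma called none after adjustment. At an unadjusted limma p under 0.05 there were 2 of the 16, beside 6.38% of all genes tested. The neutrophil chemokine gene Cxcl2 gave 6.77, 6.59, 28.0 and 11.9 CPM, with a limma adjusted p of 0.280. Library 3 was more than 2 times as high as any other. Bcl3, an NF-κB cofactor gene, gave 44.6, 53.4, 78.8 and 56.8 CPM, with a limma adjusted p of 0.697, again highest in library 3, as were 11 of the 16. The highest genes of the list by level were Sod2, the mitochondrial superoxide dismutase, at 111 ± 5.53 CPM, Ier3, an early response gene, at 62.9 ± 6.23 CPM, and Bcl3 at 58.4 ± 14.6 CPM (SD, n = 4).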

How the data were processed

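Facial skin lesions gave 4 CAGE libraries. Per the labels' protocols, total RNA was isolated on columns and libraries were made with a commercial kit; the submitters' processing notes name BWA, HISAT2 and the mm9 build, and the clustering of tags is not described in the sources used here. The deposited positions match another build: 99.95% of named clusters lay within 1000 bp of their gene in GENCODE M21 on GRCm38, so they are given on GRCm38, with the start uncertain by 1 bp. The authors deposited CPM for 69391 entries, each a cluster under a gene name or none. All values were whole multiples of 1 tag (0.0531 to 0.0567 CPM, tolerance 0.02 tags), so whole tags were recovered. Detection floors cover counting error only.

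Tags were summed per gene, shared clusters included. From 17849 genes, 17038 were kept, after dropping 33 without a tag and 778 that owe 90% or more of their tags to clusters given to a different gene; the 20326 clusters with no gene name entered totals only. The design named edgeR on counts; because the deposited unit is CPM, limma 3.58.1 (R 4.3.3) was used on log2(CPM + 1) with TMM scaling (factors 0.997, 0.924, 1.04 and 1.04), for genes of at least 1 CPM on average, with a robust prior trended on level and a one-sided upper F test, adjusted by Benjamini-Hochberg over all genes tested. edgeR 4.0.16 and DESeq2 1.42.0 on recovered tags were alternatives. Counting SDs are those of a Poisson count at the gene's mean.

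The members, gene lists and ligand and receptor pairs were chosen with earlier results of these data known. Values in every library were given for members of at least 5 CPM and for both genes of a pair, with additions where a sentence turns on them. Of the adaptor and effector genes and of the target and feedback genes the 3 highest were named. Further genes, such as Edaradd, Cxcl2 and cell type markers, were named outside that rule with their values known. Ratios between receptors were chosen after their values were seen.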

Additional observations from a re-analysis of the deposited data

Results flagged for a closer look

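In 3 of 41 sets of 4 library values (30 levels and 11 ratios), the highest or the lowest library stood far from the others, measured as its gap to the nearest other library over the whole range. Chance gives about 1 such set in 20. For the level of Tnfrsf11b this fraction was 0.917: library 4 lay at 5.96 CPM and the others at 6.80 to 6.88 CPM, and the SD over all 4 was 0.731 times the counting SD. For the log2 ratio of Tnfrsf11a to Tnfsf11 the fraction was 0.968, and for that of Tnfrsf11b to Tnfsf11 it was 0.924. In both, library 2 was the highest (6.69 and 8.01) because its Tnfsf11 count is 0 tags, and the value there follows from the 0.5 tags added.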

How the results depend on the processing

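With limma, under every scaling, filter and cluster choice tried, and without each library in turn, 0 members were called. With edgeR and DESeq2, each run at the main setting only, 0 members were called as well. The smallest adjusted p of a member lay between 0.684 and 0.981 in the limma and edgeR fits. The number of genes called in all, 61, depended more on the choice: it was 33 with edgeR, 512 with DESeq2 dispersion outliers, 34 with DESeq2 size factors, 104 with no scaling beyond CPM, 23 with a minimum mean of 5 CPM, 11 with a prior that is not robust, 94 with the strongest cluster of each gene only, and 34 with TMM factors taken from tested genes together with library totals over all entries, an alternative chosen after seeing the data. Leaving out each library gave 13 (without library 4) to 118 (without library 3). At an unadjusted limma p under 0.05 there were 2 members without library 2, 1 without library 3, and 0 in the other fits that give a p. The cause of these changes was not tested.

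Between 27 and 30 members were detected in every library. The receptor was the higher in 7 of 11 pairs in all settings except with clusters listed under 1 gene only, which leaves 9 pairs and 5 with the receptor higher, because Tnfsf12 and Ltb then have no value. The count of members highest in the leading library was 14 with each scaling; without 1 library in turn it was 15 to 20, and without library 3 the leading library was library 4, with 59.6% of all genes. With the strongest cluster alone the levels of Tnfrsf19 (32.1 CPM) and Tnfsf12 (5.93 CPM) moved by more than their SD. No paired analysis was possible because the libraries form 1 group. Depth limits genes under 1 CPM, where 1 library holds at most 21 tags of Cd40, 18 of Ltb and 6 of Tnfsf11.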

Other observations

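Other receptor genes of the superfamily that the symbol rule leaves out were measured as well. Ngfr, the low-affinity neurotrophin receptor of nerve and follicle cells, stood at 10.3 ± 2.24 CPM (SD, n = 4), between Tnfrsf18 and Tnfsf12 in the order of levels. Relt, a receptor of haematopoietic cells, stood at 1.90 ± 0.524 CPM. Limma called neither.

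Several members are neighbours in the genome, with unequal levels. The clusters of Ltbr and Tnfrsf1a lie 35763 bp apart on chromosome 6, at 36.4 and 90.5 CPM. Those of Ltb and Tnf lie 7486 bp apart on chromosome 17, at 0.641 and 2.38 CPM, and Tnf was the higher in 4 of 4 libraries. Those of Tnfsf13 and Tnfsf12 lie 10224 bp apart on chromosome 11, at 1.54 and 9.23 CPM.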
